A study of Mus musculus with 5 samples.

Results

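Imprinted growth genes were followed across single mouse embryonic stem (ES) cells, neuroblastoma cells and embryonic fibroblasts. The set was named by symbol, with earlier results of these data known. It holds Igf2, H19, Igf2r, Grb10, Cdkn1c, Peg3, Mest, Sgce, Snrpn and Impact. These are 10 genes beside 15597 that had a row on at least 1 plate. Of the 10, 9 had a row, and all 9 passed the filter on low counts. Each cell was sorted into its own well, its cDNA was given the barcode of that well during reverse transcription, and all wells of a plate were then amplified in 1 tube. The groups were ES R1, a mouse ES cell line whose cells are labelled as sphere-derived (3 plates), Neuro2A, a mouse neuroblastoma line (1 plate), and mouse embryonic fibroblasts, MEF (1 plate). The labels name no treatment, genotype or embryonic age, and whether the ES plates are separate cultures is not stated, so the p-values reflect plate-to-plate spread that may be technical.

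An imprinted gene is read mainly from a single parental copy, and DNA methylation laid down in egg or sperm marks the copies apart. Many such genes act on growth: paternally expressed genes such as Igf2, Peg3 and Mest tend to promote it, and maternally expressed genes such as Igf2r, Grb10, Cdkn1c and H19 tend to restrain it. The parent of origin cannot be read from these counts, which give only the total of both copies.

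The values below rest on wells with 1000 gene reads or more: 92 wells of MEF, 86 of Neuro2A and 93, 66 and 94 of the ES plates (replicates 1, 2 and 3), 431 in all where the stated design counts 436 cells. Levels are reads scaled to 1000000 gene reads (CPM) summed over the kept wells of a plate, so fewer cells with a transcript and less of it per cell cannot be told apart in them. Intervals are exact 95% intervals that cover counting error only, since PCR copies were not told apart. ES replicate 2 was shallow, with 262517 gene reads where the others held 2134248 to 11432543, so its floor of 3 reads lies at 11.4 CPM against 0.262 to 1.41 CPM elsewhere. The 8 ES markers summed to 5889 to 8991 CPM in the ES plates and to 0.317 and 1.71 CPM in Neuro2A and MEF. The 8 fibroblast markers summed to 10783 CPM in MEF, 0, 126 and 1355 CPM in ES replicates 1, 2 and 3 and 18.1 CPM in Neuro2A cells. Neuroblastoma markers summed to 1571 CPM in Neuro2A and 158 to 472 CPM on the other plates. Macrophage, endothelial, erythroid, muscle and extraembryonic markers summed to at most 114 CPM on any plate.

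All plates used the same 96 barcodes, and reads of MEF genes recurred on ES replicate 3 at matching barcodes. Over 196 genes read mainly in MEF, with the imprinted set left out, ES replicate 3 held a median of 10.8% of the MEF reads (interquartile range 8.77 to 13.4%). The same measure was 0% over 30 genes for ES replicate 1, 0.0394% over 36 genes for ES replicate 2, and 9.45% over 135 genes for Neuro2A reads recurring in MEF. Background in ES cells was therefore judged from replicates 1 and 2, and the counts of genes above or below MEF are also given without replicate 3.

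Imprints are carried by CpG methylation at control regions that, for several of these genes, include a promoter. RefSeq windows ran from 250 bases before to 50 bases after an annotated start (mouse build GRCm38.p6). The build of the count files is not given in the sources used here. Windows were taken for 6 of the 10 genes. H19, Sgce and Cdkn1c had none, and those of Impact were left out. Printed below is 1 window each for 4 genes that were lower on every ES plate than in MEF and for Snrpn, which was higher; of a gene with several windows, 1 that holds the hexamer named next was taken. Capitals mark TGCCGC, or GCGGCA where it lies on the other strand, the hexamer that the imprint-guarding zinc finger protein ZFP57 binds when methylated; elsewhere the letters are lower case, 5′ to 3′ along the gene.

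Igf2, chr7:142661222-142661521, minus strand: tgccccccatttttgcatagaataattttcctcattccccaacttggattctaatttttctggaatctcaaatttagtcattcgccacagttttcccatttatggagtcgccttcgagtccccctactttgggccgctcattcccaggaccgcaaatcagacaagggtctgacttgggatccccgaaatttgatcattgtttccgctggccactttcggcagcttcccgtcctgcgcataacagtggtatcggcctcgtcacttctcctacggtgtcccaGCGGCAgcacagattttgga
Igf2r, chr17:12769657-12769956, minus strand: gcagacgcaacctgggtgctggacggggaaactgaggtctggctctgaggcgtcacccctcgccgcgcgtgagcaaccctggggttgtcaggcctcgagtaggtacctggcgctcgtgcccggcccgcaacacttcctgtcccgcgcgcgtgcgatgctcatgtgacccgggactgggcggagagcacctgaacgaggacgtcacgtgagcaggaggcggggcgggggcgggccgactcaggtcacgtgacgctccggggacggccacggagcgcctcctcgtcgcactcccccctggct
Grb10, chr11:12037371-12037670, minus strand: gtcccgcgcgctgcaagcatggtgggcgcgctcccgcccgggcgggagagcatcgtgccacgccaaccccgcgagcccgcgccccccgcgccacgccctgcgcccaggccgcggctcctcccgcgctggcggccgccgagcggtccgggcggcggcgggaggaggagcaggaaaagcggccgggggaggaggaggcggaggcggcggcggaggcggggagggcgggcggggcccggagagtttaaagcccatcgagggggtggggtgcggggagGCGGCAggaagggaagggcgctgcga
Mest, chr6:30737800-30738099, plus strand: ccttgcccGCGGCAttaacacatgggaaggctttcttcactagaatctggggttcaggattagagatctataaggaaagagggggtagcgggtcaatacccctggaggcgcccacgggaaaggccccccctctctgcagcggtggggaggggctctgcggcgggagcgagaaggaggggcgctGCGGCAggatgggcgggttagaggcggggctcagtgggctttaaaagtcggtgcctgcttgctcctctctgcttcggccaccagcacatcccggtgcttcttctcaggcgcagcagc
Snrpn, chr7:60005150-60005449, minus strand: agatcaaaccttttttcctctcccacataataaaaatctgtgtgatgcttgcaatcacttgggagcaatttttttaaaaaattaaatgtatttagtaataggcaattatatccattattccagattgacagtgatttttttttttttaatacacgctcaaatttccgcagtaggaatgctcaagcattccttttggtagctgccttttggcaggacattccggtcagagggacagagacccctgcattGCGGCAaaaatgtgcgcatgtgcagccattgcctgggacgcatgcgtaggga

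The hexamer occurred in 11.6% of 32851 RefSeq windows of this length. By gene it occurred in 1 of 4 windows of Igf2, 1 of 2 of Grb10, 2 of 3 of Mest, which overlap each other, and 1 of 4 of Snrpn, and in neither the single window of Igf2r nor that of Peg3, which is not printed. Because genes have several windows and those printed were picked for the hexamer, these counts are not compared with the share of all windows. The windows shown for Igf2, Grb10 and Snrpn held 1 match each and the one for Mest held 2, while the Igf2r window held none. In CpG, the dinucleotide that carries the methylation, the windows ranged widely. Grb10 had 45 CpG, a number that 1.93% of windows reach. Igf2r had 34, reached by 7.73%, Mest 17 and Igf2 14, while Snrpn had 7, the median of all windows. A match of letters is a description of the sequence and gives no sign of binding in these cells.

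**Figure D1:**
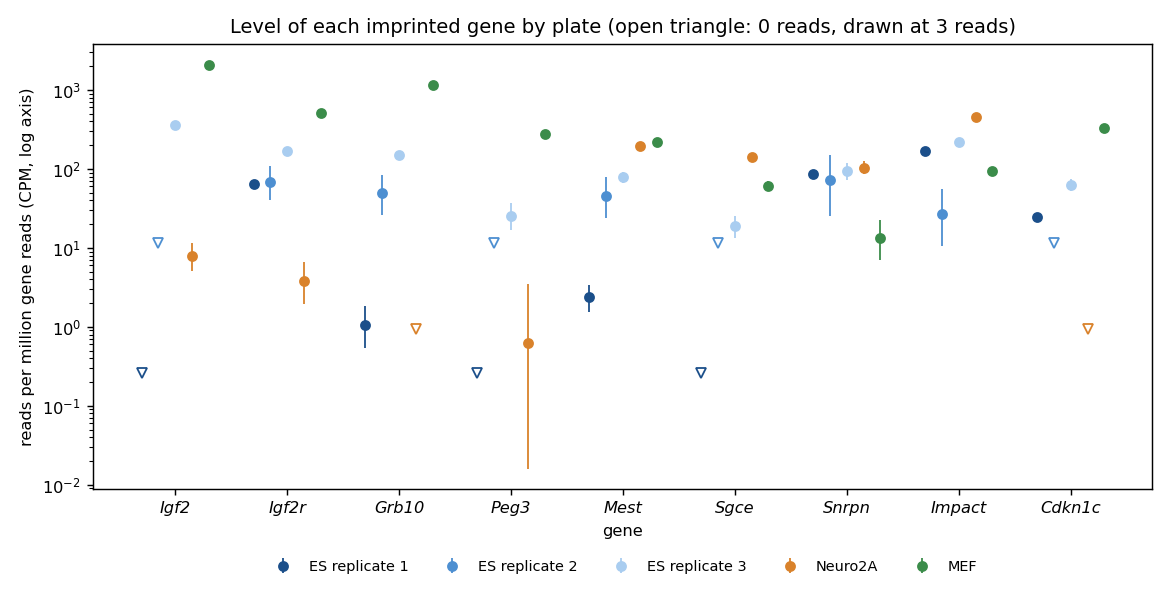
Level of the 9 imprinted genes that had a row, in CPM on a log axis, for the 3 ES plates, Neuro2A and MEF; points are plate sums with exact 95% counting intervals, and open triangles mark 0 reads, drawn at the level of 3 reads. MEF is highest for Igf2, Igf2r, Grb10, Peg3, Cdkn1c and, narrowly, Mest, and Neuro2A for Sgce, Impact and, within the counting error of the ES plates, Snrpn.

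Igf2, the fetal growth factor that signals through the type 1 IGF receptor, was read mainly in MEF. It had 0 reads on ES replicates 1 and 2, 761 reads (357 CPM) on ES replicate 3, 25 reads (7.92 CPM) in Neuro2A and 6053 reads (2065 CPM) in MEF. MEF stood above every other plate. Its level was at least 7870-fold that of ES replicate 1, at least 181-fold that of the shallow ES replicate 2 and 5.79-fold that of ES replicate 3. The reads on ES replicate 3 lay where MEF had them: all 38 wells with Igf2 carried a barcode whose MEF well also had Igf2, and the 21 barcodes without Igf2 in MEF had 0 reads. They amounted to 12.6% of the MEF reads, within the interquartile range of the other MEF genes. Subtracting the median share well by well left 102 CPM. In Neuro2A, 21 of the 25 reads came from 1 well, and all 5 wells with a read matched MEF wells that had Igf2. Within MEF the transcript was widespread, read in 70 of 92 wells, with 12.9% of its reads in the highest well. With every well thinned to 1000 gene reads it was seen in 46 of 92 MEF wells (50.0%, 39.4 to 60.6%), 17 of 94 wells of ES replicate 3, and in none on the other plates. The exact upper limits of those 0 counts are 3.89%, 5.44% and 4.20% of wells on ES replicates 1 and 2 and Neuro2A, and they limit wells with a read at this depth, not cells that express the gene.

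H19, the noncoding RNA that shares enhancers and an imprinting control region with Igf2, had no row on any plate. Its absence cannot be read as a level. None of 6 other long noncoding RNAs looked up (Malat1, Neat1, Xist, Gas5, Meg3 and Rian) had a row either, although Malat1 is abundant in most cells. Of 10653 rows whose names matched a RefSeq gene, 83 were long noncoding RNAs and 10543 were protein coding.

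**Figure D2:**
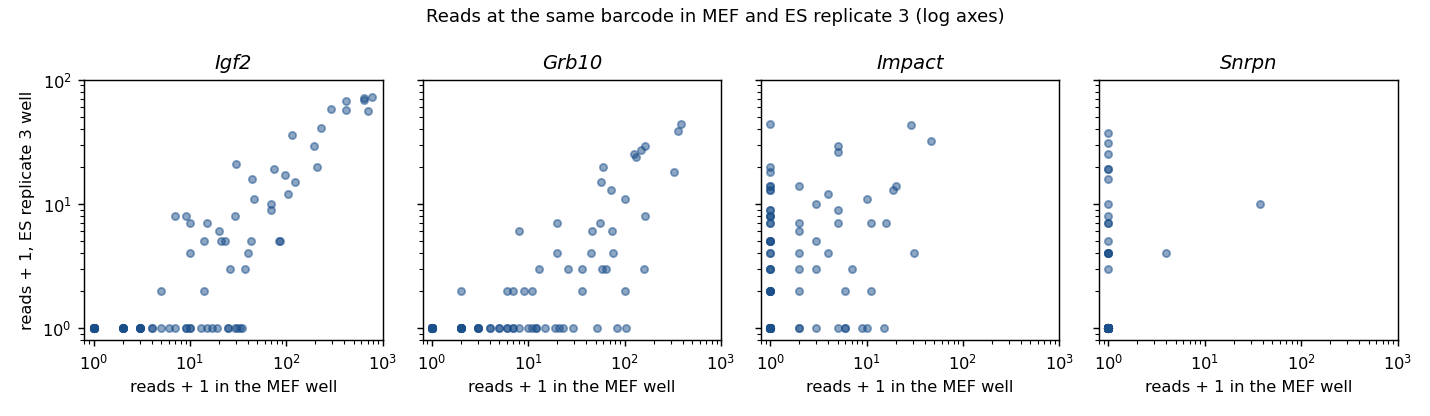
Reads of Igf2, Grb10, Impact and Snrpn in wells that carry the same barcode in MEF (x axis) and on ES replicate 3 (y axis), as reads + 1 on log axes; each point is 1 of 91 barcodes kept on both plates. Igf2 and Grb10 have no ES reads where MEF has none, while Impact and Snrpn do.

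Igf2r encodes the mannose 6-phosphate receptor that carries IGF2 to lysosomes for breakdown. Unlike Igf2 it was read on all ES plates, at 63.6, 68.6 and 170 CPM (727, 18 and 363 reads; 101 ± 60.1 CPM, SD, n = 3). MEF had 506 CPM (1484 reads) and Neuro2A 3.80 CPM, all 12 reads of it in 1 well. The ES plates lay between the other groups without overlap, 2.98- to 7.96-fold below MEF and 16.7- to 44.7-fold above Neuro2A. The fitted log2 fold change was -3.01 (SE 0.84) against MEF, with an adjusted p of 0.500 by edgeR's quasi-likelihood test. Against Neuro2A it was 4.58 (SE 1.26), with an adjusted p of 0.318. Reads were uneven between ES cells, with 53.9% of those of ES replicate 1 in 1 of the 17 wells that had any. On ES replicate 3, 35 of 39 wells with Igf2r matched MEF wells that had it, and 128 CPM were left after subtraction.

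Grb10, an adaptor that binds activated insulin and IGF1 receptors and dampens their signal, had 12 reads on ES replicate 1 (1.05 CPM), 13 on ES replicate 2 (49.5 CPM), 316 on ES replicate 3 (148 CPM), 0 in Neuro2A and 3361 in MEF (1147 CPM). The MEF level was at least 1206-fold that of Neuro2A. It was 1093-, 23.2- and 7.75-fold that of the ES plates in order, so the ES plates differed among themselves by more than the counting error. All 12 reads of ES replicate 1 came from 1 of 93 wells, whereas MEF had Grb10 in 67 of 92 wells. On ES replicate 3 all 33 wells with Grb10 matched MEF wells that had it, 40.3 CPM remained after subtraction, and the 24 barcodes without Grb10 in MEF had 0 reads. Thinned to 1000 gene reads, the share of wells was 37.0% in MEF (34 of 92; 27.1 to 47.7%) and 0%, 3.03% and 11.7% on the ES plates.

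Cdkn1c encodes p57, a CIP/KIP inhibitor of cyclin-dependent kinases. It had 285 reads on ES replicate 1 (24.9 CPM), 0 on ES replicate 2, 134 on ES replicate 3 (62.8 CPM), 0 in Neuro2A and 980 in MEF (334 CPM). MEF again stood above every plate, at least 352-fold above Neuro2A and 13.4- and 5.33-fold above ES replicates 1 and 3. Among ES cells the reads sat in few wells, 18 of 93 on replicate 1 and 13 of 94 on replicate 3. At the barcodes shared with MEF, 15 of the 285 reads on ES replicate 1 and 4 of the 134 on ES replicate 3 lay where MEF had none. The fibroblast markers were at 0 on ES replicate 1. In MEF all 37 wells with Cdkn1c also had Igf2.

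Peg3, a zinc finger protein gene linked to fetal growth and maternal behaviour, had 0 reads on ES replicates 1 and 2, 54 on ES replicate 3 (25.3 CPM), 2 in Neuro2A and 802 in MEF (274 CPM). It was thus a further transcript read almost entirely in MEF, in 32 of 92 wells. All 8 wells of ES replicate 3 with Peg3 matched MEF wells that had it, and 2.62 CPM were left after subtraction. Each of the 41 well values of Peg3 was even, so the counted unit was 2 and intervals were computed on that step.

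Mest, whose protein resembles alpha/beta hydrolases and whose loss retards fetal growth, was shared by MEF and Neuro2A. It had 2.36, 45.7 and 78.2 CPM on the ES plates (27, 12 and 167 reads; 42.1 ± 38.1 CPM, SD, n = 3), 194 CPM in Neuro2A (613 reads) and 221 CPM in MEF (649 reads). Every ES plate was below both. MEF exceeded Neuro2A by 1.14-fold (1.02 to 1.27, counting error only), and the order turned when the highest well of each plate was left out, with 141 CPM in Neuro2A and 133 CPM in MEF. The share of wells was alike, 34 of 86 in Neuro2A and 35 of 92 in MEF. At matching barcodes 13 of the 33 wells with Mest on ES replicate 3 had none in MEF, and 60.2 CPM remained after subtraction.

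Sgce encodes epsilon-sarcoglycan, a membrane protein of the dystrophin-associated complex. It had 0 reads on ES replicates 1 and 2, 40 on ES replicate 3 (18.7 CPM), 448 in Neuro2A (142 CPM) and 178 in MEF (60.7 CPM). Neuro2A was 2.34-fold above MEF (1.96 to 2.80) and stood above the ES plates by at least 541-fold (replicate 1), at least 12.4-fold (replicate 2) and 7.58-fold (replicate 3). The reads were concentrated, with 40.0% of those in Neuro2A and 38.8% of those in MEF in the highest well. At shared barcodes 69 of the 178 MEF reads lay where Neuro2A had none, and 52.8 CPM remained in MEF after Neuro2A reads were subtracted. On ES replicate 3, 7 of the 13 wells with Sgce matched MEF wells that had it, and 15.2 CPM remained after MEF reads were subtracted. The flanking gene Casd1 had the same order, 0, 3.81 and 13.1 CPM on the ES plates, 256 CPM in Neuro2A and 60.1 CPM in MEF. Peg10, a retrotransposon-derived gene that starts head to head with Sgce and is also paternally expressed, had the opposite order between groups. Its levels were 49.2, 122 and 25.3 CPM on the ES plates, 3.17 CPM in Neuro2A and 15.7 CPM in MEF.

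Snrpn encodes a spliceosomal Sm protein and lies in the imprinted region whose human counterpart is affected in Prader-Willi syndrome. It was the 1 member above MEF on every ES plate: 86.9, 72.4 and 93.2 CPM (993, 19 and 199 reads; 84.2 ± 10.7 CPM, SD, n = 3) against 13.3 CPM (39 reads). The ES plates were 5.44- to 7.01-fold above MEF, with a fitted log2 fold change of 1.94 (SE 1.11) and an adjusted p of 0.596 by edgeR. Neuro2A had 104 CPM (327 reads; 85.1 to 125 CPM), within the counting error of the ES plates, but 297 of those reads came from 1 well and 9.67 CPM remained without it. The MEF reads were as concentrated, 36 of 39 in 1 well, and that well carried the barcode of the 297-read Neuro2A well; 11 of the 39 reads were left in MEF after Neuro2A reads were subtracted. ES replicate 1 also had 633 of its 993 reads in 1 well and 31.8 CPM without it. At 1000 gene reads per well Snrpn was seen in 4 of 93, 4 of 66 and 6 of 94 ES wells and in 1 well each of Neuro2A and MEF. Snurf, whose reading frame lies on the same transcript, cannot be separated from it: in 36 of the 45 wells with either, the Snrpn value was exactly 3 times the Snurf value. The level of Snrpn is therefore uncertain in scale.

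Impact, a regulator that restrains the GCN2 kinase and is abundant in neurons, was read on every plate. It had 169, 26.7 and 219 CPM on the ES plates (1932, 7 and 467 reads; 138 ± 99.7 CPM, SD, n = 3), 448 CPM in Neuro2A (1414 reads) and 95.2 CPM in MEF (279 reads). Neuro2A was above every ES plate and 4.71-fold above MEF (4.14 to 5.37), where 73.2 CPM remained after Neuro2A reads were subtracted. The ES plates overlapped the MEF level. Of the Neuro2A reads 40.6% lay in 1 well, and 277 CPM remained without it. The reads on ES replicate 3 were 167% of those in MEF, and 29 of its 55 wells at shared barcodes had no Impact in MEF, which sets this gene apart from Igf2, Grb10 and Peg3.

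**Figure D3:**
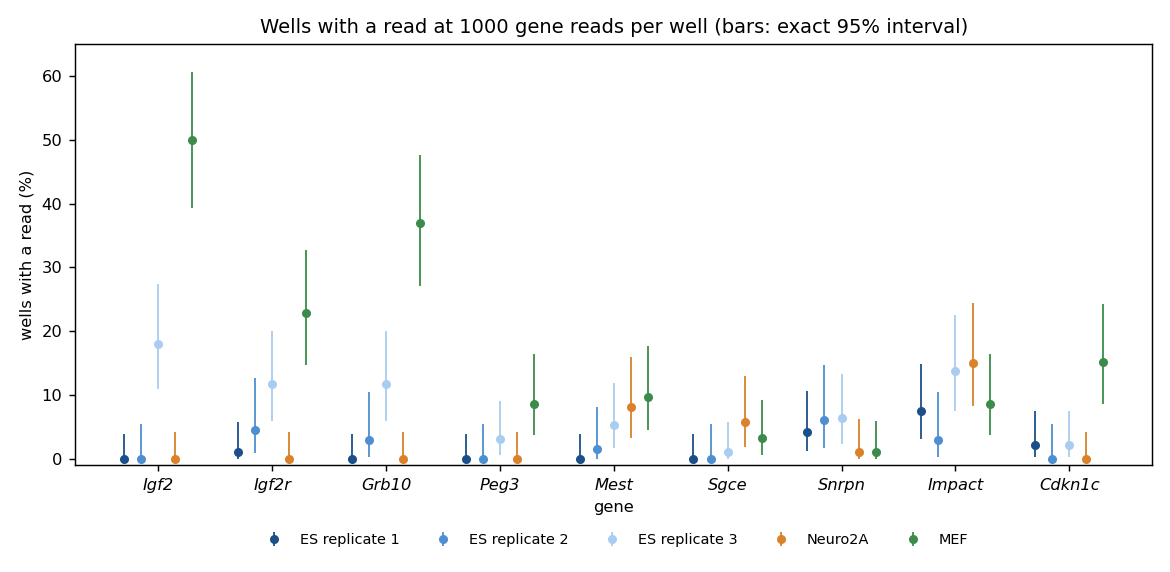
Share of kept wells with at least 1 read of each gene after every well was thinned to 1000 gene reads, in percent, for the 3 ES plates, Neuro2A and MEF, with exact 95% binomial intervals. Igf2 and Grb10 reach 50.0% and 37.0% of MEF wells, and Snrpn stays under 7% on every plate.

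**Figure D4:**
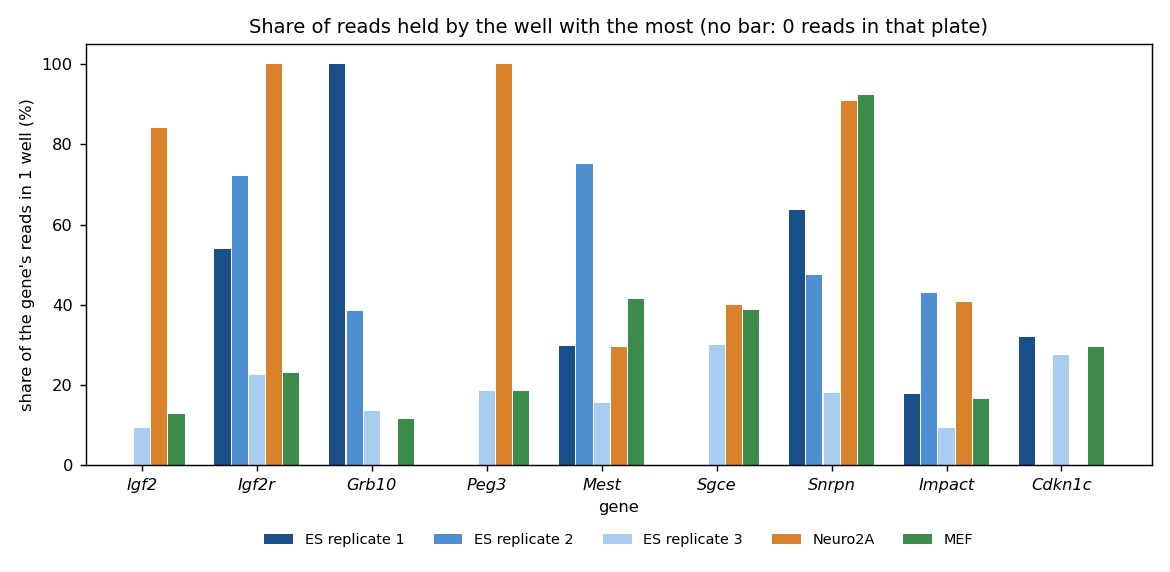
Percent of each gene's reads on a plate that came from its highest well; a missing bar means 0 reads. The bars of Snrpn in Neuro2A (90.8%) and MEF (92.3%) contrast with Igf2 (12.9%) and Grb10 (11.5%) in MEF.

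ES levels lay below MEF for most of the set. Every ES plate lay below MEF for 7 of the 9 genes (Igf2, Igf2r, Grb10, Cdkn1c, Peg3, Mest and Sgce), where 28.5% of the 12271 genes tested did so, and above it for Snrpn alone, where 31.5% of genes did. The same 7 and 1 were found without ES replicate 3, against 33.7% and 36.9% of genes. The median fitted log2 fold change was -3.78 over the 9 genes, the value of Sgce, and -0.08 over all genes. Igf2, Peg3 and Sgce had ES reads on ES replicate 3 alone, the plate on which MEF reads recurred. Without that plate their fitted values were -16.5, -13.6 and -11.4, which rest on 0 ES reads and are no measured folds. No gene passed edgeR's test at an adjusted p of 0.05 (0% of genes), neither in this set nor elsewhere. At an unadjusted p under 0.05 the test returned 1028 genes (8.38%), 516 higher and 512 lower in ES, or 861 and 212 with library size as the only scaling. Lower in ES at that level were Igf2r, Cdkn1c and Grb10, 3 of 9 where 4.17% of genes were. With library size as the only scaling, Cdkn1c and Grb10 no longer passed at that level, Igf2r was the 1 gene lower, and Snrpn passed as higher. DESeq2 called 481 genes (3.92%), 395 higher and 86 lower in ES, none of the set among them. With limma-voom 492 were called (4.01%), 1 higher and 491 lower, so nearly all its calls had 1 direction. Among them were Igf2, Igf2r, Grb10, Cdkn1c, Peg3 and Mest, lower in ES, 6 of 9 where 4% of genes were. Only the ES plates supply the fit's 2 residual degrees of freedom. Leaving out ES replicate 1 gave 645 calls with edgeR (5.48%), among them Igf2, Grb10, Cdkn1c and Peg3, all lower, where 3.67% of genes were called lower.

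Against Neuro2A the set split. Every ES plate lay below Neuro2A for Mest, Sgce, Snrpn and Impact, 4 of 9 where 25.6% of genes did, and above it for Igf2r and Grb10, 2 of 9 where 30.9% did. Without ES replicate 3 the lower count was 6 of 9, against 30.3% of genes, through Igf2 and Peg3. Their Neuro2A levels lie under the 11.4 CPM that ES replicate 2 can show, so no order against that plate is read for them. Without the highest well of each gene, Snrpn moved from the lower to the upper side and Grb10 left the upper side. With edgeR 0 genes passed the adjusted threshold (0%) and 1525 had an unadjusted p under 0.05 (12.4%). Among these were Igf2r, Grb10 and Cdkn1c, higher in ES, 3 of 9 where 8.38% of genes were. DESeq2 called 1240 genes (10.1%), with the same 3 higher where 8.78% of genes were, and limma-voom called 0. Without ES replicate 1 edgeR called 1438 genes (12.2%), among them Igf2r, Grb10, Cdkn1c, Igf2 and Peg3 as higher (8.64% of genes) and Sgce as lower (3.59%). In that fit all ES reads of Igf2 and Peg3 lay on ES replicate 3, at barcodes whose MEF well had the gene. The ES plates enter both comparisons. The fitted values of Grb10 and Cdkn1c against Neuro2A, where both had 0 reads, depend on the prior count and are no measured folds.

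**Figure D5:**
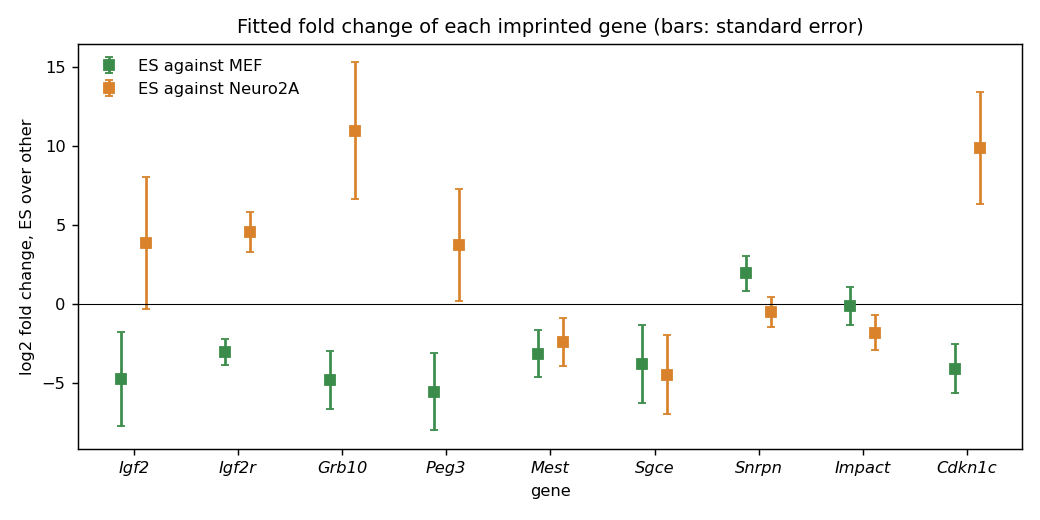
Fitted log2 fold change of each gene, ES over MEF (green) and ES over Neuro2A (orange), from edgeR's fit over 12271 genes. Bars are standard errors computed from the fold change and edgeR's F statistic. Against MEF, 8 of 9 values lie below 0, from -5.52 for Peg3 to -0.10 for Impact, and Snrpn lies above it; standard errors reach 4.32 for Grb10 against Neuro2A.

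Neuro2A and MEF, with 1 plate each, have no replicate check. Neuro2A was at least 4-fold below MEF for Igf2, Igf2r, Grb10, Cdkn1c and Peg3, 5 of 9 where 24.2% of genes were. Igf2 was 261-fold higher in MEF (176 to 403) and Igf2r 133-fold (76.0 to 258). For Peg3, whose 2 reads in Neuro2A lie under the floor of 3, the ratio was 432 with a counting interval of 77.0 to 17092. Neuro2A was at least 4-fold above MEF for Snrpn (7.79, 4.37 to 15.1) and Impact, 2 of 9 where 20.8% of genes were. Impact fell under 4-fold after TMM scaling, and Snrpn alone was past it then. Without the highest well of each plate Snrpn had 9.67 CPM in Neuro2A and 1.08 CPM in MEF, where 3 reads remained, and Impact was under 4-fold (277 and 82.5 CPM).

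Within the MEF plate several genes were often read in the same well, and the rank correlations between them were low. A median of 4 of the 9 genes were read per MEF well, up to 8, against 1, 0 and 2 on the ES plates and 1 in Neuro2A, but depth differed between the plates. At 1000 gene reads per well the median was 1 in MEF, 0, 0 and 1 on the ES plates and 0 in Neuro2A. Over 92 MEF wells, in thinned reads, the Spearman rho between pairs ran from -0.23 (Grb10 and Peg3) to 0.19 (Igf2r and Impact, and Igf2 and Cdkn1c). These are sparse counts that share a library and a depth, and no relation is read from them. Among 3268 genes read in at least 20% of MEF wells, those most like Igf2 were Tmsb4x (0.43), Serf2 (0.40) and Actb (0.39), the first a thymosin that binds actin monomers and the last a cytoplasmic actin. Grb10 was closest to Fat1, Thbs1 and Nr4a1 (0.37 to 0.38), Igf2r to Pls3 (0.44), and Mest to Dcn (0.52). Dcn, an extracellular matrix proteoglycan gene, was also read mainly in MEF. For each gene these are the highest of 3268 values. After thinning, Mest was seen in 9 of 92 MEF wells and Igf2r in 21. No relation is read from these values either.

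Other imprinted genes showed no common direction. Of 60 named genes 38 had a row and 33 were tested. Every ES plate lay below MEF for 10 of the 33 and above it for 9, close to the 28.5% and 31.5% of all genes (14 and 13 without ES replicate 3, against 33.7% and 36.9%), and their median log2 fold change was -0.19. The 10 include Dcn, also 1 of the 8 fibroblast markers, so its side repeats the marker result. Those below included Dlk1, a membrane protein that restrains fat cell differentiation (0, 15.2 and 13.1 CPM in ES, 161 CPM in MEF), and Ndn, a growth-suppressing MAGE protein (0, 0 and 11.2 CPM in ES, 67.2 CPM in MEF). Slc38a4, an amino acid transporter of the fetus and placenta, had 7.00, 45.7 and 41.2 CPM in ES and 175 CPM in MEF. Those above included Phlda2, a brake on placental growth that lies near Cdkn1c. It had 17.8, 26.7 and 13.1 CPM on the ES plates and 0 reads in Neuro2A and MEF, where Cdkn1c had 334 CPM in MEF. Of 13 tested genes that neighbour the set, 3 lay below and 6 above MEF on every ES plate, beside 28.5% and 31.5% of all genes. Without ES replicate 3 the counts were 4 and 7, beside 33.7% and 36.9%. The neighbours are not a separate set. Ndn below and Ddc, Peg10, Snurf, Phlda2 and Nap1l4 above were also counted among the other imprinted genes. Snurf, counted in both lists, cannot be separated from Snrpn. Cobl and Ddc, which flank Grb10, were likewise above MEF on every ES plate while Grb10 was below it. Cobl had 193, 290 and 28.6 CPM in ES and 0 reads in MEF. Ddc had 158, 41.9 and 52.5 CPM in ES and 7.17 CPM in MEF.

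The rest of the IGF pathway lay more often below than above MEF on the ES plates. Every ES plate lay below MEF for 10 of 20 tested genes (28.5% of all genes) and above for 3 (31.5%). The counts were the same without ES replicate 3 (33.7% and 36.9% of all genes). At an unadjusted p under 0.05 by edgeR 3 were lower and 0 higher, where 512 (4.17%) and 516 of all 12271 genes were. In this list 0 passed the adjusted threshold. Igf1r, the receptor through which IGF2 signals, had 57.8, 68.6 and 39.8 CPM in ES, 178 CPM in Neuro2A and 184 CPM in MEF. Igf1, the other ligand, had 21 reads in MEF and 0 on the other plates. Pappa, a protease that frees IGFs from their binding proteins, had 0, 0 and 47.8 CPM in ES, 326 CPM in Neuro2A and 224 CPM in MEF. Of the mRNA-binding proteins named after Igf2 mRNA, Igf2bp2 was highest in MEF (256 CPM, against 82.7 to 126 CPM in ES and 24.4 CPM in Neuro2A). Igf2bp1 was highest in ES (182, 99.04 and 95.1 CPM, against 28.0 CPM in MEF and 0 reads in Neuro2A).

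Genes that lay down or guard imprints lay more often above than below MEF on the ES plates. Every ES plate lay above MEF for 10 of 15 tested genes and below it for 1 (31.5% and 28.5% of all genes). The counts were 10 and 2 without ES replicate 3 (36.9% and 33.7%). At an unadjusted p under 0.05 by edgeR 5 were higher and 0 lower, where 516 and 512 of all 12271 genes were. In this list 0 passed the adjusted threshold. The 10 above and the 5 higher include Zfp42, also 1 of the 8 ES markers, so its side repeats the marker result. Zfp57 had 120, 60.9 and 200 CPM in ES (127 ± 69.6 CPM, SD, n = 3), 5.07 CPM in Neuro2A and 42.3 CPM in MEF. Trim28, the corepressor that ZFP57 recruits, had 672, 427 and 507 CPM in ES, 210 CPM in Neuro2A and 176 CPM in MEF. Dnmt3l, a cofactor of the methyltransferases that set imprints in germ cells, had 1181, 876 and 1041 CPM in ES and 0 reads in Neuro2A and MEF. These are transcript levels, and methylation was not measured.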

How the data were processed

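Single-cell tagged reverse transcription was measured on 5 plates of 96 wells. The authors deposited raw counts, 1 table per plate with features in rows and barcodes in columns; the submitters' processing notes name Bowtie, while a version, a build and an annotation are not given in the sources here. The labels' protocols name no molecular identifiers. Repeats (23.0 to 82.4% of a plate's reads) and mitochondrial genes were left out of library sizes, genes without a row were taken as 0, and wells under 1000 gene reads were dropped.

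Reads were summed per plate and fitted over all genes with edgeR 4.0.16 (TMM, filterByExpr, glmQLFit and glmQLFTest, Benjamini-Hochberg at 0.05, all 5 plates in 1 fit, biological coefficient of variation 122%), with DESeq2 1.42.0 and limma-voom 3.58.1 as alternatives. The standard errors (SE) of the edgeR fold changes are not an output of the fit. They were computed as the absolute log2 fold change divided by the square root of the F statistic. Where a plate had 0 reads, folds were computed against 3 reads. Wells were thinned to 1000 gene reads with a fixed seed; no well was left out by this. Doublets were not called. Carry-over was measured on genes of at least 100 CPM in the source plate and 10 times the level of all plates outside the pair. Named genes were the 10 members, members of the lists of other imprinted, neighbouring, IGF pathway, imprint maintenance and CIP/KIP genes, and the 3 genes most like a member by Spearman rho in a plate with 1 cell type. The members and lists were chosen with earlier results of these data known. Python 3.11.15, scipy 1.17.1, matplotlib 3.10.9 and R 4.3.3 were used.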

Additional observations from a re-analysis of the deposited data

Results flagged for a closer look

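Wells under 1000 gene reads entered no comparison except the alternative that keeps all wells with reads. Among the 30 such wells of ES replicate 2, Mest had 4 reads, above the 3 reads that a count of 0 allows. The 66 kept wells of that plate held 12 Mest reads.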

How the results depend on the processing

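The fold changes of the 9 genes, against MEF and against Neuro2A, were refitted under the alternatives. Of the 288 refits, 257 kept direction and side of the threshold, 19 newly passed it and 12 turned sign. Impact, ES against MEF (-0.10), turned to 0.56 with library size alone, 0.46 without the low-count filter, 0.062 with limma-voom, 0.18 with wells of at least 2000 gene reads, 0.32 with Neuro2A reads subtracted from MEF, 0.36 with both subtractions, 0.81 without wells whose barcode ends in G and 0.94 without ES replicate 2 (range with 1 ES plate left out -0.33 to 0.94). Igf2, ES against Neuro2A (3.86), turned to -5.12 with limma-voom and -8.21 without ES replicate 3 (range -8.21 to 4.46). Peg3 (3.71) turned to -1.32 and -4.62 (range -4.62 to 4.39). The median gene moved from -0.08 to 0.67 against MEF with library size alone. Genes called against MEF numbered 0 with edgeR, 9 without the filter, 481 with DESeq2, 492 with limma-voom and 0 to 645 with 1 ES plate left out. Against Neuro2A they numbered 0, 82 without the filter, 1240 with DESeq2 and 0 to 1438 with 1 ES plate left out; of the plates left out in turn, only ES replicate 1 gave calls. The counts of genes without overlap, both directions pooled, ran from 8 to 9 against MEF and from 6 to 8 against Neuro2A with 1 ES plate left out. Without ES replicate 3, 33.7% of all genes lay below MEF and 36.9% above it. Against Neuro2A these shares were 30.3% and 35.9%. Shares over all genes were not computed for the other plates left out. For Neuro2A against MEF, 7 genes were past 4-fold, where 24.2% of all genes were below and 20.8% above. The count was 6 after TMM scaling or without each gene's highest well, an alternative chosen after seeing the data. Shares over all genes were not computed under these alternatives. The cause of these changes was not tested. Of 90 shares of wells, 18 moved by more than their interval when wells were thinned to 500 or 2000 gene reads. No paired analysis was possible because Neuro2A and MEF are single plates and the labels number no replicates. Neither of these plates could be left out. The shallow ES replicate 2 cannot show levels under 11.4 CPM.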

Other observations

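Relatives and partners of Cdkn1c showed no common direction. Of 9 tested CIP/KIP and G1 kinase genes, every ES plate lay below MEF for 3 and above it for 2. Of all genes 28.5% and 31.5% did so. Without ES replicate 3 the counts were 4 and 2, against 33.7% and 36.9% of genes. In this list 0 passed edgeR's adjusted threshold. Cdkn1a, the p21 inhibitor, had 22.7, 64.8 and 246 CPM in ES, 2.54 CPM in Neuro2A and 661 CPM in MEF, the same order of groups as Cdkn1c. Ccnd2, a D-type cyclin, had 0.350, 15.2 and 203 CPM in ES, 0.634 CPM in Neuro2A and 1795 CPM in MEF. Ccne1, an E-type cyclin, had 138, 103 and 108 CPM in ES, 1 read in Neuro2A and 0 reads in MEF.

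Further imprinted genes had uneven levels between Neuro2A and the other plates. Mkrn3, a paternally expressed gene near Snrpn, had 231 reads in Neuro2A (73.2 CPM, 16 wells) and 0 to 5.46 CPM on the other plates. Nap1l5 had 617 reads in Neuro2A (196 CPM) in 7 wells and 6.14 CPM in MEF. Nnat, a neuronal membrane protein gene, had 0 reads in Neuro2A, 182 on ES replicate 3 (85.3 CPM) and 228 in MEF (77.8 CPM), and none on ES replicates 1 and 2.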
